A study of Populus ussuriensis with 20 samples.

Results

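A pair of poplar gene models, Potri.014G103000.v3.0 and Potri.002G176300.v3.0, was followed at the base of rooting stem cuttings in 20 libraries. They are 2 of the 39538 gene models in the deposited tables. The first was chosen for its rise in plants overexpressing the transcription factor PuHox52, the largest among genes that passed the test of that comparison. Among all tested genes, passing or not, its mean log2 fold change ranked 5th of 26391. The second was taken along as its presumed duplicate, a rule that does not use its values, although earlier results of these data were known when the pair was put forward. Both were put forward as genes of class I of the homeodomain-leucine zipper (HD-Zip) family, of the ATHB7/ATHB12 type. The files used here pair the IDs with neither gene names nor sequences, so the family and the duplicate relation could not be checked, and the pair is called by its IDs.

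As background, HD-Zip proteins are plant transcription factors that bind DNA through a homeodomain and pair up through the leucine zipper next to it. In Arabidopsis, ATHB7 and ATHB12 are class I members that are known to be induced by abscisic acid and by water deficit. Poplars descend from an ancestor whose genome was duplicated, and many of their genes still exist as pairs of similar copies on different chromosomes.

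The plants were Populus ussuriensis grown in vitro. OE plants (PuHox52-OE in the labels) carried PuHox52 behind the 35S promoter of cauliflower mosaic virus, which drives expression in most plant tissues, and WT plants did not. Segments of about 3 cm were placed on diluted Murashige and Skoog medium with sucrose, and the basal 0.5 cm was harvested at 6, 12, 24, 48 or 96 h after cutting. Each of the 10 groups (OE and WT at 5 times) had 2 replicates of 40 pooled cuttings. The series text gives the plants' age as 2 weeks and the growth protocol as 4 weeks, and the number of transgenic lines behind the OE cuttings is not stated in the labels. Total counts were 10399262 to 27472303 per library, and the replicates of a group differed by more than sampling noise. Neither the introduced PuHox52 copy nor the plant's own PuHox52 could be assigned to a gene model, so the labels were not checked by the level of the overexpressed gene, nor the tissue by marker genes. Whether a member of the pair is PuHox52 itself was therefore not determined. Any reads of the introduced copy that were counted at a member cannot be told apart from reads of the plant's own gene.

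Potri.014G103000.v3.0 lies on chromosome 14, from 8085842 to 8087890 on the minus strand, with a model length of 1933 bases. Potri.002G176300.v3.0 lies on chromosome 2, from 13539679 to 13541339, also on the minus strand, with a length of 1566 bases. Coordinates are those of the deposited tables, and no other gene model overlaps either. Both were well covered, with 1355 to 70885 counts per library for Potri.014G103000.v3.0 and 805 to 3668 for Potri.002G176300.v3.0. Counting error alone was therefore at most 3.52% of a value, smaller than the spread between most replicates. If the copies are similar in sequence, reads could have been divided between them in the authors' counting, and this was not tested.

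The genotypes differed in opposite directions at the pair. Potri.014G103000.v3.0 was chosen for its mean rise in OE, and it was higher in OE than in WT at all 5 times. At a single time 15.5 to 25.8% of all tested genes were above WT without overlap, and the share that were so at all 5 times was not determined. Potri.002G176300.v3.0 did not follow Potri.014G103000.v3.0: averaged over the times it was 1.38-fold lower in OE. In bulk tissue, fewer cells that express a gene and less of its RNA per cell cannot be told apart.

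Levels are given as CPM, counts scaled by effective library size. At 6 h, Potri.014G103000.v3.0 stood at 338 and 492 CPM in OE, against 132 and 111 CPM in WT. At 12 h the OE libraries had 862 and 1063 CPM, against 104 and 155 CPM in WT (log2 fold change 2.89, SE 0.261). At 24 h the libraries had 1121 and 1182 CPM in OE, against 264 and 293 CPM in WT. At 48 h the OE replicates were far apart. They had 477 and 828 CPM, against 334 and 250 CPM in WT (log2 fold change 1.16, SE 0.247). Without the higher or the lower of these OE libraries the 48 h value was 0.72 or 1.5. At 96 h the gene reached 2130 and 2626 CPM in OE, against 348 and 361 CPM in WT. Across times the genotypes overlapped: the lowest OE library, at 6 h, lay below both WT libraries at 96 h.

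These differences between OE and WT chose the gene, so they are given without a test. Whether reads of the introduced copy contributed to them, or to the gene's time course in OE, was not tested. Over the 5 times the fitted mean was 4.36-fold (log2 fold change 2.12, SE 0.114). Of the genes called in that comparison (1.16% of those tested; a gene is called when its adjusted p is under 0.05), the next in size, Potri.016G141100.v3.0, also had a log2 fold change of 2.12, but at 3.19 CPM in OE and 1.63 CPM in WT. With a minimum of 1 set on the mean log2 CPM, the called gene that came next was Potri.013G151100.v3.0 at 1.47.

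**Figure D1:**
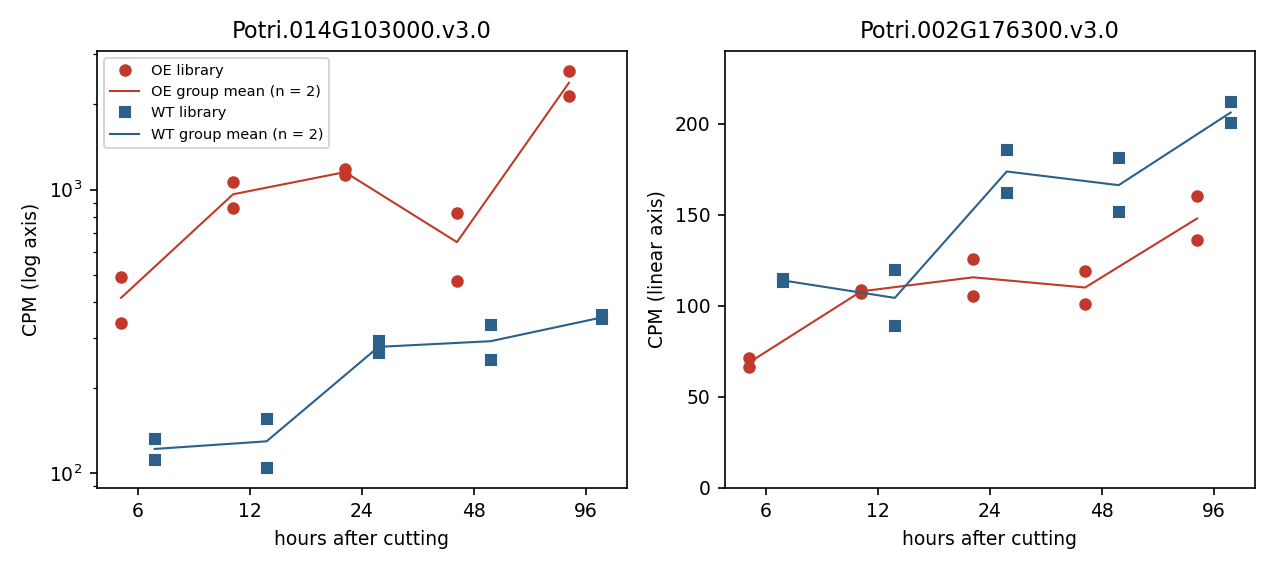
CPM of Potri.014G103000.v3.0 (left, log axis) and Potri.002G176300.v3.0 (right, linear axis) against hours after cutting; each point is 1 library (OE circles, WT squares) and lines join the means of 2 libraries. On the left all OE libraries lie above the WT libraries of their time, and on the right they lie below them at 6, 24, 48 and 96 h but not at 12 h.

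At 6 h, Potri.002G176300.v3.0 had 71.5 and 66.3 CPM in OE, against 115 and 113 CPM in WT. At 12 h the genotypes overlapped, with 109 and 107 CPM in OE and 89.1 and 120 CPM in WT. At 24 h it had 126 and 106 CPM in OE, against 162 and 186 CPM in WT. The OE libraries also lay below both WT libraries at 48 h, with 101 and 119 CPM in OE, against 181 and 151 CPM in WT. At 96 h the values were 160 and 136 CPM in OE, against 200.6 and 212 CPM in WT. OE was thus below WT without overlap at 4 of the 5 times. At single times, 16 to 24.1% of all tested genes were likewise lower in OE without overlap. The share of genes that were so at 4 or more times was not determined.

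Averaged over the times, the log2 fold change of Potri.002G176300.v3.0 was -0.47 (SE 0.0635) by edgeR's quasi-likelihood test over all genes, with a Benjamini-Hochberg adjusted p of 0.0016. In that comparison 0.5% of the 26391 tested genes were called lower in OE. The call held in every alternative tried, with log2 fold changes of -0.55 to -0.42. An exact two-sided permutation of the genotype labels within each time (7776 arrangements, smallest possible p 0.000257) gave p = 0.00103.

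At single times the calls of Potri.002G176300.v3.0 depended on the tool and the libraries. At 6 h its log2 fold change was -0.72 (SE 0.145), or 1.65-fold lower in OE. The gene was called there, with an adjusted p of 0.0247 by the same edgeR test, and so were 0.678% of genes in that direction. Leaving out whichever of the 4 libraries sampled at 6 h ended that call (adjusted p 0.087 to 0.142). At 24, 48 and 96 h the log2 fold changes were -0.59, -0.60 and -0.48 (SE 0.142, 0.142 and 0.141), with adjusted p of 0.0786, 0.385 and 0.102, none of them called by edgeR. DESeq2 called the gene lower in OE at all 3 of these times, with adjusted p of 0.0079, 0.0404 and 0.0341, where it called 0.904, 0.0658 and 0.853% of genes lower. Without a filter on low counts edgeR called it at 24 h (adjusted p 0.0273), and in a fit of the 4 libraries at 96 h alone it called it there (0.0433). At 12 h the value was 0.05 (SE 0.141, adjusted p 0.937). By edgeR, the share of genes called lower in OE was 0.193% at 12 h, 0.432% at 24 h, 0.0341% at 48 h and 0.417% at 96 h. The test of whether the difference between OE and WT changed over the times did not pass (adjusted p 0.177, unadjusted p 0.0126), so 12 h was not shown to differ from the other times. For comparison, 1.65% of genes passed that test.

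**Figure D2:**
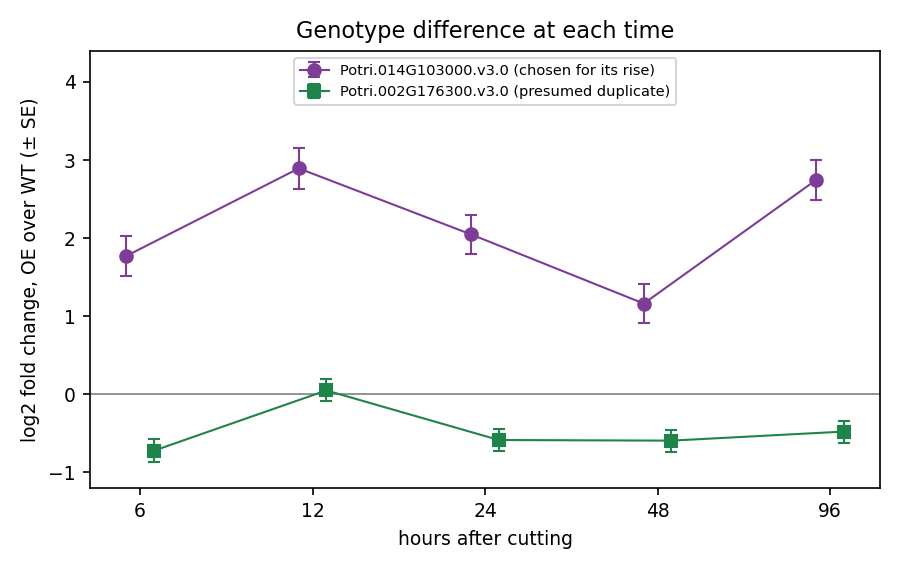
Log2 fold change of OE over WT (± SE from the fit) at each time for both gene models. Values of Potri.014G103000.v3.0 range from 1.16 to 2.89, and those of Potri.002G176300.v3.0 from -0.72 to 0.05.

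The time courses were compared within each genotype, since contrasts between times had no part in choosing the genes. In OE, Potri.014G103000.v3.0 increased in the order 6, 48, 12, 24 and 96 h, with means of 415 ± 109, 652 ± 248, 962 ± 142, 1152 ± 42.9 and 2378 ± 350 CPM (SD, n = 2 each). Of the 10 pairs of times 7 were called, all higher at the later time. These were all 4 pairs with 6 h and all 3 others with 96 h. Relative to 6 h, 17.8, 21.8, 28 and 31.1% of all genes were called higher at 12, 24, 48 and 96 h in OE, and relative to 12, 24 and 48 h, 18.3, 12.7 and 3.64% were higher at 96 h. Between 24 and 12 h, 48 and 12 h, and 48 and 24 h, 2.58, 23.8 and 6.61% of genes were called in either direction. At 96 h the gene was 5.73-fold higher than at 6 h (log2 fold change 2.52, SE 0.257, adjusted p 5.7e-07) and 3.65-fold higher than at 48 h (1.87, SE 0.251, adjusted p 0.000583, both by edgeR).

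The other steps in that order were less firm. At 48 h the gene was 1.57-fold higher than at 6 h (adjusted p 0.0325 by edgeR), a call lost without the second OE library at 48 h (0.543) or the first at 6 h (0.275), with the 10 OE libraries alone (0.0648) and by limma on FPKM (0.0525). The lower level at 48 h was not called (adjusted p 0.108 against 12 h and 0.0557 against 24 h). Without the second OE library at 48 h, however, both contrasts were called (0.0201 and 0.0363), and DESeq2 called the one against 24 h (0.00911), as it did 5.78% of genes in that direction. The level at 96 h was 2.07-fold that at 24 h (log2 fold change 1.05, adjusted p 0.00574 by edgeR). The call, but not the direction, was lost without the first OE library at 24 h (1.01, adjusted p 0.0614) or the second at 96 h (0.84, adjusted p 0.0646).

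Potri.002G176300.v3.0 increased in OE in the order 6, 12, 48, 24 and 96 h, with means of 68.9 ± 3.65, 108 ± 1.47, 110 ± 12.7, 116 ± 14 and 148 ± 17 CPM (SD, n = 2 each). It was called at 5 of the 10 pairs, the 4 with 6 h and 96 h against 12 h, each higher at the later time. Of all genes, 17.8 to 31.1% were called higher in the 4 comparisons with 6 h, and 18.3% at 96 h against 12 h. At 96 h Potri.002G176300.v3.0 was 2.15-fold higher than at 6 h (log2 fold change 1.10, SE 0.144, adjusted p 7.34e-06 by edgeR). At 12 h it was 1.57-fold higher than at 6 h (0.65, SE 0.143, adjusted p 0.0024). In WT the same contrast was -0.13 (SE 0.142, adjusted p 0.524), or -0.35 to 0.09 with 1 library left out. The edgeR test of whether the difference between OE and WT changed over the times did not pass (adjusted p 0.177, unadjusted p 0.0126). By DESeq2 its adjusted p was 0.0519. It covers all times jointly, and the step from 6 to 12 h alone was not compared between the genotypes. An earlier rise in OE was therefore not shown. No pair among 12, 24 and 48 h was called (adjusted p 0.814 to 0.916 by edgeR), and 96 h was not called against 24 h (0.075) or 48 h (0.0804). The call of 96 h against 12 h (0.019) was lost without either OE library at 12 h or the first at 96 h (0.0727 to 0.207).

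In WT the same contrasts were made. Whether the order of the times differed from that in OE was not tested for Potri.014G103000.v3.0. By their calls, both gene models formed the same 2 levels, low at 6 and 12 h and high at 24, 48 and 96 h. All 6 pairs across that step were called for each gene, each of them higher at the later time, and none of the 4 pairs within a level was. At 96 h, Potri.014G103000.v3.0 stood at 354 ± 8.76 CPM in WT, against 122 ± 15.2 CPM at 6 h (SD, n = 2 each), 2.91-fold higher (log2 fold change 1.54, SE 0.252, adjusted p 6.36e-05 by the edgeR test). Potri.002G176300.v3.0 stood at 206 ± 7.82 CPM at 96 h, against 114 ± 1.10 CPM at 6 h, 1.81-fold higher (0.86, SE 0.143, adjusted p 7.82e-05). Such rises were common: 24.1, 28.5 and 30.2% of all genes were called higher at 24, 48 and 96 h than at 6 h in WT, and 6.52, 18 and 23.6% than at 12 h. For the pairs within a level, 36% of genes were called in either direction between 12 and 6 h, 5.58% between 48 and 24 h, 30.3% between 96 and 24 h and 16% between 96 and 48 h.

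The step in WT fell between 12 and 24 h. Set against 12 h, the 24 h level of Potri.014G103000.v3.0 was 2.15-fold higher (adjusted p 0.00882 by edgeR) and Potri.002G176300.v3.0 was 1.66-fold higher (0.00381). Both calls were lost without the first WT library at 12 h (adjusted p 0.137 and 0.0696) or the second at 24 h (0.0781 and 0.0617). The 48 h call of Potri.002G176300.v3.0 against 6 h was lost without the first WT library at 48 h (0.0633). Within the high group no pair of times was called for either gene (adjusted p 0.148 to 0.911 by edgeR). Both WT libraries at 96 h nevertheless lay above those at 24 and 48 h. For Potri.014G103000.v3.0 the lowest at 96 h had 348 CPM, against at most 334 CPM at 48 h. For Potri.002G176300.v3.0 it had 200.6 CPM, against at most 185.5 CPM at 24 h. A further rise by 96 h was thus neither shown nor excluded. The times 24, 48 and 96 h are whole days apart, while 6 and 12 h are other hours of the cycle of 16 h light and 8 h dark. The step therefore cannot be told apart from a difference in time of day. In OE the same limit holds for every contrast of either gene with 6 or 12 h.

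To compare the 2 gene models with each other, levels were taken per length, as counts per base or as the authors' FPKM (fragments scaled by model length and library size). Over the 10 OE libraries, Potri.014G103000.v3.0 had 165 to 1269 FPKM and Potri.002G176300.v3.0 had 41.9 to 101 FPKM. In WT they were close to equal, with 50.3 to 180 FPKM for Potri.014G103000.v3.0 and 55.7 to 137 FPKM for Potri.002G176300.v3.0. The first thus took 79.3 to 94% of the counts per base of the pair in OE libraries, against 44.3 to 59.9% in WT libraries, with no overlap. By FPKM, it ranked 22nd to 743rd among all gene models in OE libraries, against 497th to 2804th in WT libraries. Potri.002G176300.v3.0 ranked 1093rd to 3618th in OE and 741st to 2510th in WT. As the first gene model was chosen by its rise in OE, these contrasts between genotypes are descriptions.

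**Figure D3:**
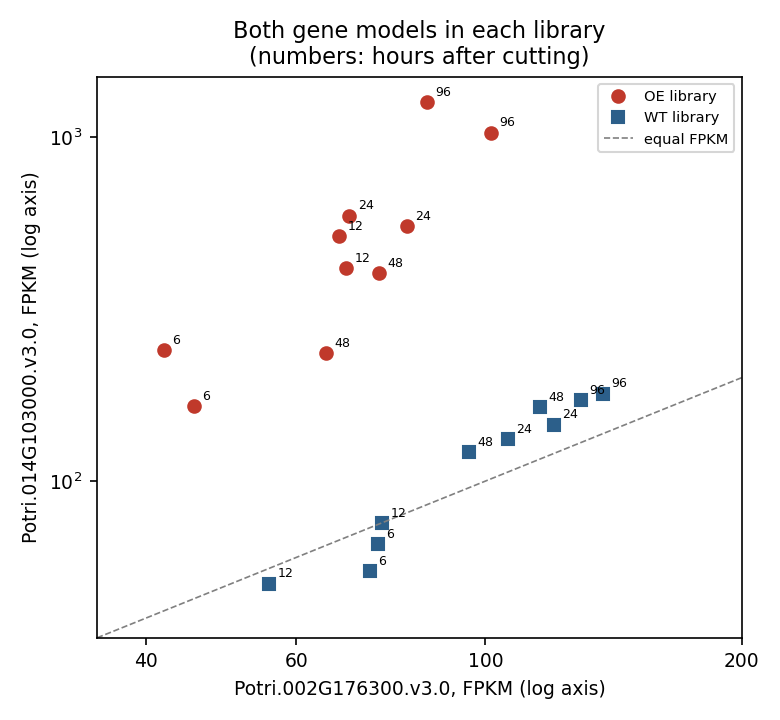
FPKM of Potri.014G103000.v3.0 (vertical) against Potri.002G176300.v3.0 (horizontal) in each of the 20 libraries, on log axes, with hours after cutting beside each point and a dashed line of equal FPKM. WT libraries (squares) lie near the line, and OE libraries (circles) stand above it, at FPKM ratios of 3.62 to 14.9.

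The balance of the pair also changed with time. In OE the log2 ratio of counts per base, Potri.014G103000.v3.0 over Potri.002G176300.v3.0, was 2.26 ± 0.458 at 6 h, 2.85 ± 0.233 at 12 h, 3.02 ± 0.229 at 24 h, 2.22 ± 0.396 at 48 h and 3.70 ± 0.380 at 96 h (SD, n = 2 each). It was lowest at 48 and 6 h and highest at 96 h. An exact permutation test of the ratio over all 945 ways to divide the 10 OE libraries into 5 pairs gave p = 0.0296, also 0.0296 when adjusted over the 2 genotypes (smallest possible p 0.00106). In WT the log2 ratio was -0.21 ± 0.167 at 6 h, 0.00 ± 0.102 at 12 h, 0.38 ± 0.0331 at 24 h, 0.50 ± 0.115 at 48 h and 0.48 ± 0.0191 at 96 h (SD, n = 2 each). Both genes rose over this period, with the larger fold for the first. The same exact permutation test gave p = 0.00741 in WT, or 0.0148 after adjustment.

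**Figure D4:**
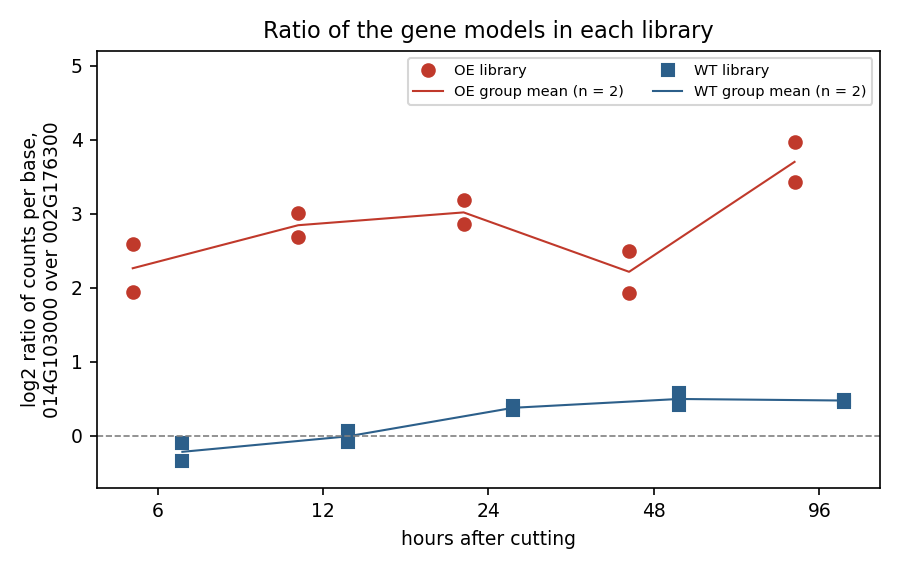
Log2 ratio of counts per base of Potri.014G103000.v3.0 over Potri.002G176300.v3.0 in each library, against hours after cutting; lines join the means of 2 libraries. OE libraries range from 1.94 to 3.97 and WT libraries from -0.33 to 0.58.

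Over the 10 OE libraries the log2 CPM of the pair had a Pearson's r of 0.859. Ranked by r among 21455 genes, the other member stood 221st in likeness to Potri.014G103000.v3.0 and 1348th in likeness to Potri.002G176300.v3.0, where 0.303 and 2.73% of genes had an r over 0.9. Over the 10 WT libraries r was 0.976, with places 46 and 9, where 4.57 and 2.03% of genes had an r over 0.9. Over all 20 libraries it was 0.0405. These correlations are descriptions, since libraries of a time share their stage and both genes share each library's scaling.

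The genes most like each member in WT, by r of log2 CPM over the 10 WT libraries, were named by rank. For Potri.014G103000.v3.0 these were Potri.018G026400.v3.0, Potri.005G122400.v3.0, Potri.010G064200.v3.0, Potri.005G244700.v3.0 and Potri.012G048200.v3.0, with r of 0.987 to 0.992. For Potri.002G176300.v3.0 they were Potri.009G159000.v3.0, Potri.016G084900.v3.0, Potri.013G069900.v3.0, Potri.018G062500.v3.0 and again Potri.018G026400.v3.0, with r of 0.978 to 0.988. The gene on both lists, Potri.018G026400.v3.0 on chromosome 18 from 2099739 to 2103851, averaged 47.8 CPM in OE and 50.5 CPM in WT. Its log2 fold change at 96 h against 6 h was 1.37 in WT (SE 0.158, adjusted p 1.7e-06 by edgeR), and between OE and WT, averaged over the times, it was -0.05 (SE 0.0684, adjusted p 0.859). None of these 9 genes was called between OE and WT by edgeR (adjusted p 0.55 to 0.959). In that comparison 1.16% of all tested genes were called in either direction, so the lack of calls says little about these genes.

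Over all 20 libraries the genes most like Potri.014G103000.v3.0 had r of 0.83 to 0.868. They were Potri.013G031200.v3.0, Potri.013G008600.v3.0, Potri.016G084500.v3.0, Potri.002G238500.v3.0 and Potri.001G061800.v3.0. Their log2 fold changes between OE and WT, 0.22 to 0.61, were smaller than its own 2.12. All 5 were higher in OE and among the 1.16% of tested genes that edgeR called in either direction. The genes most like Potri.002G176300.v3.0 were Potri.012G097300.v3.0, Potri.010G239400.v3.0, Potri.014G134900.v3.0, Potri.T082400.v3.0 and Potri.001G078700.v3.0, with r of 0.87 to 0.901. All 5 had negative log2 fold changes, -0.33 to -0.09, and none passed the edgeR test (adjusted p 0.0741 to 0.529). In both lists r includes the genotype difference of the member itself, so the shared sign and the calls follow in part from the ranking. They are descriptions, not tests of these genes.

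The 5 nearest tested gene models on either side were examined to see whether the differences reached beyond the pair. Around Potri.014G103000.v3.0 edgeR called 0 of the 10 neighbours between OE and WT, where it called 1.16% of all genes. At an unadjusted p under 0.05 there were 3, against 11.7% of all genes, and DESeq2 called 2. These were Potri.014G102600.v3.0, with a log2 fold change of 0.96 (SE 0.262, adjusted p 0.0989 by edgeR) at 2.19 CPM in OE and 1.61 CPM in WT, and Potri.014G102700.v3.0, with 1.58 (SE 0.375, adjusted p 0.0539) at 0.643 CPM in OE and 0.22 CPM in WT. DESeq2 gave them adjusted p of 0.0287 and 0.0256, in a test that called 1.96% of all genes. The gene model between these and the member, Potri.014G102800.v3.0, averaged 60 CPM in OE and 59.3 CPM in WT, with a log2 fold change of 0.02 (SE 0.0346). The last of the 3, Potri.014G103100.v3.0, is the nearest on the other side, 17753 bases away. Its log2 fold change was 0.48 (SE 0.156, adjusted p 0.187 by edgeR), at 9.08 CPM in OE and 7.29 CPM in WT. The median over the 10 neighbours was 0.13, against 0.0102 over all tested genes.

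Around Potri.002G176300.v3.0 edgeR and DESeq2 each called 1 of the 10 neighbours, where they called 1.16 and 1.96% of all genes. At an unadjusted p under 0.05 by edgeR there was also 1, against 11.7% of all genes. The called neighbour was the outermost, Potri.002G176900.v3.0, higher in OE (log2 fold change 0.50, SE 0.0862, adjusted p 0.0102 by edgeR), with 14.4 CPM in OE and 11.6 CPM in WT. The nearest on the other side, Potri.002G176100.v3.0, lies 856 bases away on the same strand and averaged 33.4 CPM in OE and 32.8 CPM in WT, with a log2 fold change of 0.03 (SE 0.0408). The median over the 10 neighbours was 0.04, against -0.47 for Potri.002G176300.v3.0 itself and 0.0102 over all tested genes.

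**Figure D5:**
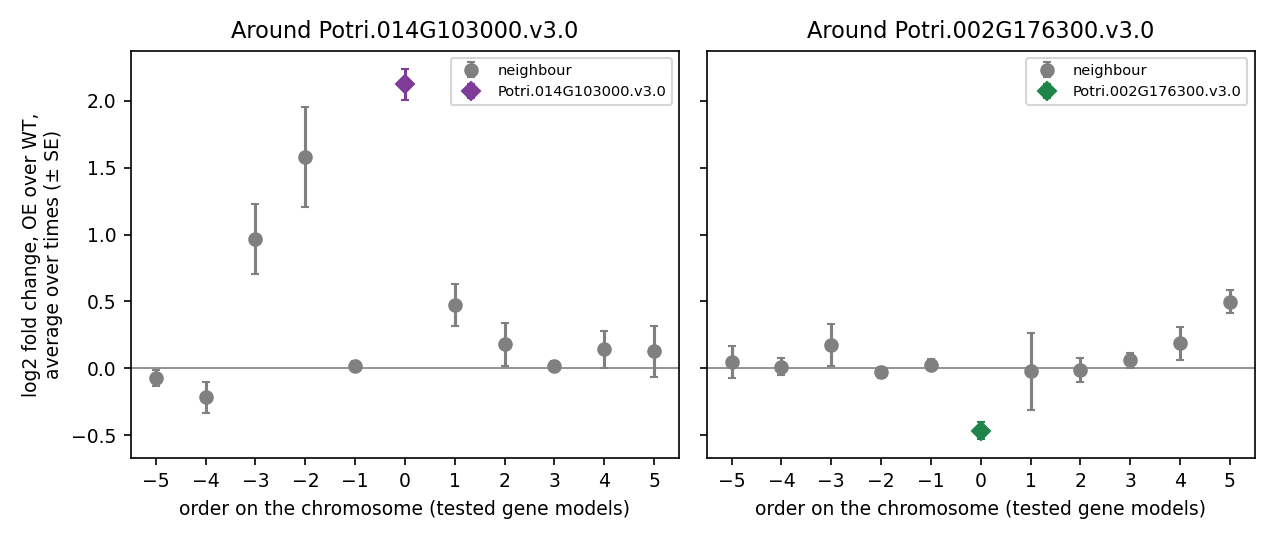
Log2 fold change of OE over WT averaged over the times (± SE) for each member (diamond) and the 5 nearest tested gene models on either side (circles), in chromosome order. Neighbours of Potri.014G103000.v3.0 range from -0.22 to 1.58 and those of Potri.002G176300.v3.0 from -0.03 to 0.50.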

How the data were processed

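The authors deposited 1 table per library with, per the file headers, 3 values for each gene model: the count, FPKM and a normalized value. The submitters' processing notes name TopHat2 2.1.1 and HTSeq 0.6.0, with no role or order. The genome build and annotation, and whether counting used strand, were "not given in the sources used here". The tests used the deposited counts, which are whole numbers with differing totals. Deposited FPKM served for levels per length and as an alternative, and the deposited normalized signal, whose scaling by the authors is not described, only as an alternative for the ratio.

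edgeR 4.0.16 (R 4.3.3) was used with TMM scaling, filterByExpr, which kept 26391 of 39538 models, and 1 group-means model over all 20 libraries (10 residual degrees of freedom). Benjamini-Hochberg adjustment ran over all tested genes within each comparison, not over comparisons. A gene was called at an adjusted p under 0.05. SE is the log2 fold change divided by the square root of F. Log2 CPM for correlations used a prior count of 2. DESeq2 1.42.0 and limma 3.58.1, on log2(FPKM + 0.5), were alternatives. The edgeR test was checked on simulated counts.

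Members and lists were chosen with earlier results of these data known. Named genes were the 5 most like each member, over all 20 and over the 10 WT libraries, among genes whose mean log2 CPM reached 1, and the 5 tested neighbours on either side. Lists of HD-Zip and abscisic acid genes and of cell type markers rested on product names and were not formed here. The labels call the samples biological replicates.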

Additional observations from a re-analysis of the deposited data

How the results depend on the processing

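Alternatives were other size factors, DESeq2, no filter on low counts, limma on deposited FPKM, fits on fewer libraries and each library left out in turn. No paired analysis was possible because the labels carry no replicate numbers. For Potri.002G176300.v3.0 the average difference between OE and WT kept its direction and its call in all of them, among them the average of 24, 48 and 96 h only, chosen after seeing the data (-0.55), with adjusted p from 1.43e-09 to 0.00612. At single times its calls varied. At 24 h it was called by DESeq2 (-0.60) and without a filter (-0.588), at 48 h by DESeq2 (-0.594), and at 96 h by DESeq2 (-0.506) and in a fit of only the 4 libraries at 96 h (-0.483). At 6 h the call was lost with the 4 libraries alone (-0.738). Leaving out 1 library moved the 6 h value between -0.778 and -0.674, and at 12 h between -0.15 and 0.28, with no call. The cause of these changes was not tested. The range of the mean log2 ratio over the times in WT, 0.71, was 0.595 to 0.831 with 1 library left out, the extremes coming without either WT library at 6 h. Within OE, 6 to 8 pairs of times were called for Potri.014G103000.v3.0 over all alternatives and 4 to 5 for Potri.002G176300.v3.0, and within WT 5 to 6 for each. Its 4.36-fold rise in OE is a description, and its log2 value stayed within 2.03 to 2.19 with 1 library left out. With 2 libraries per group the spread within a group is poorly known, which limits single times more than the average.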

Other observations

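Replicates of a group also show how the pair varies within a group. In OE, the library of a group that was higher for Potri.014G103000.v3.0 was also higher for Potri.002G176300.v3.0 in 1 of 5 groups, at 48 h, where the log2 differences between the replicates were 0.80 and 0.24. At 96 h in OE the differences were 0.30 and -0.24. In WT the signs were the same in 5 of 5 groups, with 0.57 and 0.42 at 12 h and -0.42 and -0.26 at 48 h. This was noticed after the values were seen, both values of a library share its scaling, and the difference between the genotypes was not tested.

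The summed FPKM of the pair was 246.5 ± 51.1 in OE and 134 ± 8.82 in WT at 6 h (SD, n = 2 each), and 1244 ± 156 in OE and 309 ± 11.1 in WT at 96 h. These sums include the gene chosen for its rise and are descriptions.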
